A study of Mus musculus with 64 samples.

Results

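Pyruvate made by glycolysis enters mitochondria, is oxidised to acetyl-CoA and is burned in the tricarboxylic acid (TCA) cycle. The RNAs of 30 genes of this route were followed through 64 adipose libraries in 15 groups. The 30 genes are a list of symbols drawn up with earlier results of these data known, although no measured value enters the rule, and all 30 were found among the 24328 genes in every count file. They comprise 13 enzymes of the cycle, 4 cytosolic counterparts and aspartate aminotransferases, 4 subunits of the pyruvate dehydrogenase complex, its 4 kinases, 3 proteins of its phosphatases and 2 subunits of the mitochondrial pyruvate carrier. All 30 passed the low-count filter in each comparison below.

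RNA-seq was made from epididymal white fat (eWAT), inguinal white fat (iWAT) and brown fat (BAT) of mice fed low fat (LFD) or high fat (HFD). Some groups received rosiglitazone (labelled rosi), an agonist of PPAR gamma, the nuclear receptor that drives adipocyte differentiation. C57BL/6J mice (B6) gave 9 groups. These were eWAT on LFD and on HFD with no agent named (the first eWAT set, 5 libraries each), eWAT as LFD control, HFD control and HFD rosi (the second eWAT set, 4 each), iWAT as LFD control, HFD control and HFD rosi (4 each), and BAT on HFD with no agent named (4). 129S1/SvlmJ mice (129) gave eWAT as LFD control and HFD control and iWAT as HFD control and HFD rosi, with 4 libraries each. B6/129S1 F1 hybrid mice gave iWAT on LFD as control and rosi, with 5 libraries each, so that the hybrids' rosiglitazone comparison was made on LFD and the others on HFD. The labels used here give no age, sex, dose or length of treatment, and do not say whether each replicate is its own animal. The p-values therefore rest on the spread between these libraries, which may be partly technical.

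In the pathway, the carrier proteins Mpc1 and Mpc2 bring pyruvate into the mitochondrion, and the pyruvate dehydrogenase complex (Pdha1, Pdhb, Pdhx, Dlat, with the shared subunit Dld) turns it into acetyl-CoA. The kinases Pdk1 to Pdk4 switch the complex off by phosphorylating it, and the phosphatases Pdp1 and Pdp2, held back by the regulatory subunit Pdpr, switch it on again. Citrate synthase (Cs) opens the cycle, and the isocitrate, 2-oxoglutarate and malate dehydrogenases draw electrons from it for respiration. Succinyl-CoA ligase exists as an ADP-forming enzyme with the Sucla2 subunit and a GDP-forming enzyme with the Suclg2 subunit, both sharing Suclg1. Brown fat is rich in mitochondria and oxidises fuel to make heat, white fat stores it, and Pdk4 is a well-known PPAR target that spares pyruvate when fatty acids are used.

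The alternative subunits of succinyl-CoA ligase moved differently from each other, as did the kinases Pdk4 and Pdk3, so the 250 bases before their annotated starts are shown, 5′ to 3′ on each gene's strand. They were chosen after their values were seen and come from RefSeq on GRCm38.p6. The windows are Sucla2 at chr14:73552536-73552785 (plus strand), Suclg2 at chr6:95718847-95719096 (minus), Pdk4 at chr6:5496279-5496528 (minus) and Pdk3 at chrX:93832151-93832400 (minus). Capitals mark AGGTCA, the core element of many nuclear receptor sites, or GGGCGG, the core of the GC box, on either strand.
Sucla2: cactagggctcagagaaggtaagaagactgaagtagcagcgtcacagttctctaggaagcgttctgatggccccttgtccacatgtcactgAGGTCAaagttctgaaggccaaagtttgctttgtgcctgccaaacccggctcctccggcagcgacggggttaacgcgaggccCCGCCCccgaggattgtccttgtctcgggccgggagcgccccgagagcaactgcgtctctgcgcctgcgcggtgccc
Suclg2: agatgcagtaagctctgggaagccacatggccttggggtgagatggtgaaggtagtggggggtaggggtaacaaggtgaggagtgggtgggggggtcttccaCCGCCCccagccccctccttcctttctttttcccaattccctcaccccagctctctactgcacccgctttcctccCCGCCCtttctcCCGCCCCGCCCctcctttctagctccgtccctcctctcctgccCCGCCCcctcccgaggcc
Pdk4: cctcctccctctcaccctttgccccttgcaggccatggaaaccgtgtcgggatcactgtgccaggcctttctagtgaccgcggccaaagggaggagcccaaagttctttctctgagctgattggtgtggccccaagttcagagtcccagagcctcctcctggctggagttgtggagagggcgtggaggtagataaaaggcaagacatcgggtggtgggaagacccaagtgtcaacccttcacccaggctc
Pdk3: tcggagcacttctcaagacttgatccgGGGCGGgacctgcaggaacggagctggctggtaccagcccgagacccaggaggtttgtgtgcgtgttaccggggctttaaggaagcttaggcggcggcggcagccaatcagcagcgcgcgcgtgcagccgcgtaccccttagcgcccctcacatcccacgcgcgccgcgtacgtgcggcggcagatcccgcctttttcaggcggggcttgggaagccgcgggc
The Sucla2 window held 1 AGGTCA and 1 GGGCGG, the Suclg2 window held 5 GGGCGG (some overlapping) and no AGGTCA, the Pdk3 window held 1 GGGCGG, and the Pdk4 window held neither. Counted in windows of 250 bases before to 50 after the start, GGGCGG was in 19 of the 28 members with a window (67.9%), against 38.2% of 27025 genes. AGGTCA was in 7 of 28 (25%), namely Idh3g, Ogdh, Sucla2, Fh1, Got1, Got2 and Mpc1, against 18.1% of genes. The longer TCAAGGTCA, which contains AGGTCA, was in none of the 28 members and in 0.47% of genes, and AGGTCA repeated with 1 base between was in none and in 0.0481% of genes. These matches describe letters in the windows and are not measured binding. Idh3a and Pdp1 had no window.

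Library totals ran from 3099737 to 9551251 reads counted to genes. Levels are counts scaled to library size (CPM) after TMM normalisation over all 64 libraries, and changes are log2 ratios with their standard error (SE) from edgeR's quasi-likelihood test, with Benjamini-Hochberg adjustment over all genes tested. A gene "rose", "fell" or was called at adjusted p below 0.05. The labelled tissues had fitting markers: the thermogenic protein Ucp1 averaged 5680 ± 773 CPM (SD, n = 4) in BAT and 0 in the 5 libraries of lean B6 eWAT of the first set. Summed over 7 adipocyte markers, CPM was 22598 to 28647 in 129 eWAT but 3012 to 20171 in B6 eWAT HFD control. Summed over 12 skeletal muscle markers it was 4888 to 52364 in the B6 iWAT LFD libraries, 26393 in 129 iWAT HFD control library 3, 7366 in 129 iWAT HFD rosi library 1 and 2559 in library 3 of B6 eWAT LFD of the first set. Because these are bulk samples, fewer cells of a type and less RNA per cell cannot be told apart.

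Brown fat held the highest group mean for 24 of the 30 genes, and 22 of the 30 were highest among the white fat groups in rosiglitazone-treated F1 iWAT. Together the 30 genes took 2.971% to 3.83% of counts in BAT, 1.403% to 2.136% in F1 iWAT rosi and 0.2355% to 0.3307% in B6 eWAT HFD of the first set. Cs spanned from 281 CPM in that last group to 3540 CPM in BAT. Pdk4 had the widest span, from 23.3 CPM in B6 eWAT LFD of the first set to 4508 CPM in BAT, and Pdk2 went from 7.90 CPM in B6 eWAT HFD of the first set to 246 CPM in BAT. The lowest group mean of 23 genes was in B6 eWAT on HFD, 15 in the first set and 8 in the HFD controls of the second. The share of tallied reads that fell in no annotated feature was 64.3% to 70.6% in the first B6 eWAT set and F1 iWAT and 29.3% to 49.1% in all other libraries, and its part in levels set across these libraries was not tested.

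**Figure D1:**
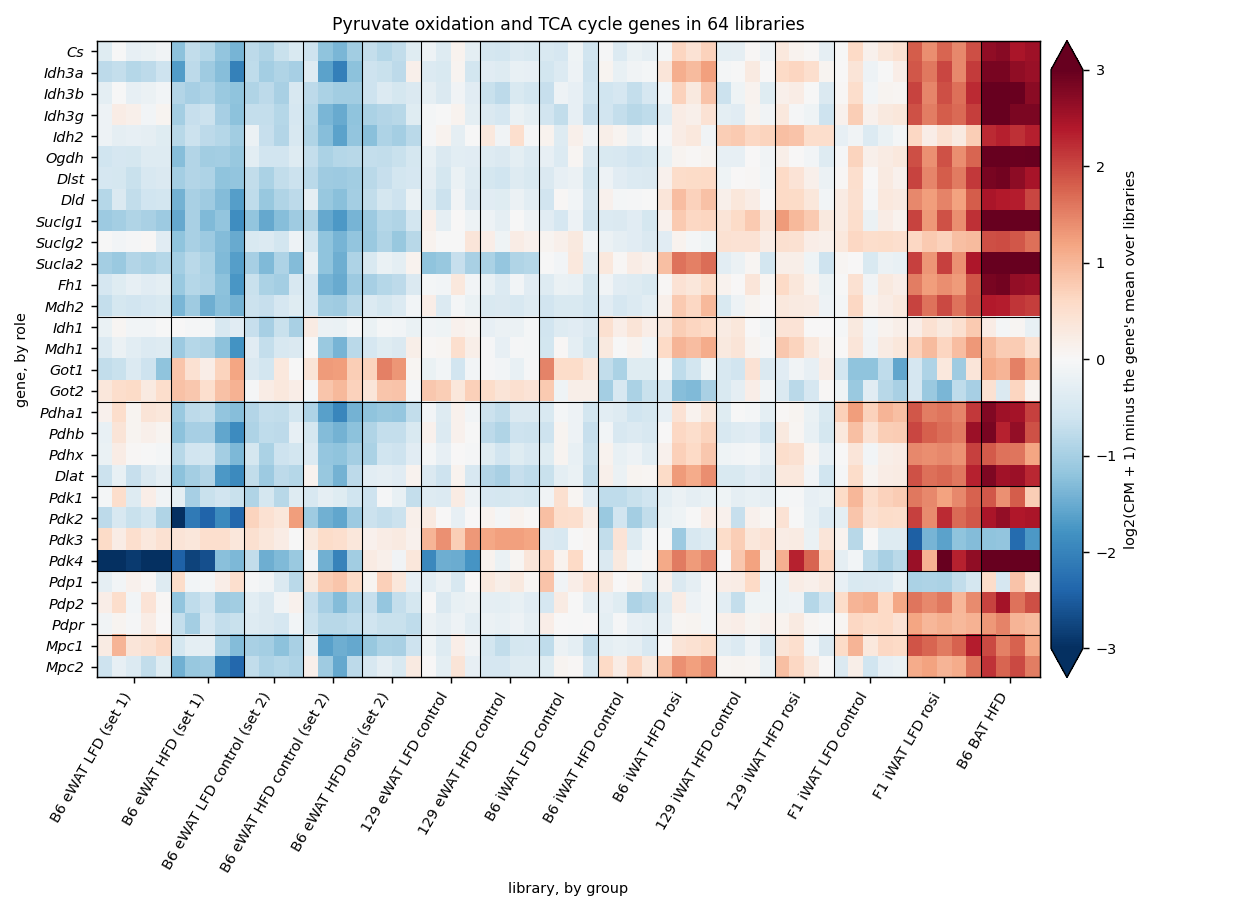
Level of each of the 30 genes (rows, by role) in each of the 64 libraries (columns, by group), as log2(CPM + 1) minus that gene's mean over libraries, with red for high and blue for low. BAT and F1 iWAT rosi are red in most rows and B6 eWAT on HFD is blue in most rows, while Got2, Pdk3 and Pdp1 have their highest means in eWAT on HFD.

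The 6 genes whose highest mean was not in BAT were the cytosolic dehydrogenases Idh1 and Mdh1 (highest in B6 iWAT rosi), Mpc1 (F1 iWAT rosi), the aminotransferase Got2 (B6 eWAT HFD, first set), Pdk3 (129 eWAT HFD) and Pdp1 (B6 eWAT HFD control). For none of these 6 was the highest group clear of the next in every library. Mpc1 and Got2 were highest in the sets where 64.3% to 70.6% of reads fell in no feature. Part of the exon bases of Mpc1 (23.05%) and Got2 (9.0%) overlaps a gene on the opposite strand. The other carrier subunit, Mpc2, was highest in BAT, at 405 CPM. The part of these counting differences in the ranking was not tested. Pdk3 had its lowest means where most cycle enzymes were high, with 2.53 CPM in BAT and 2.53 CPM in F1 iWAT rosi, against 22.4 CPM in 129 eWAT HFD. It did not run against them throughout. With HFD in the first B6 eWAT set it was not called, where 12 of 13 cycle enzymes fell. In 129 against B6 it was called higher in 3 of 3 comparisons, as were Suclg1 and Idh2. Across all 15 groups Idh1 varied 2.67-fold and Pdp1 2.80-fold between lowest and highest mean, the narrowest spans in the set.

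Per kilobase of the longest annotated coding transcript (GENCODE M21 lengths, GRCm38, while the authors counted on mm9), Pdk4 was the highest of the 4 kinases in 12 of 15 groups. Its level in BAT was 1294 ± 294 CPM per kb (SD, n = 4), against 109 ± 8.61 for Pdk2, 35.6 ± 11.5 for Pdk1 and 1.20 ± 0.555 for Pdk3. The exceptions were the lean eWAT groups, but the highest mean there was within the spread of the next. In B6 eWAT LFD of the first set Pdk1 was at 12.9 ± 3.29, Pdk2 at 11.9 ± 1.42 and Pdk4 at 6.68 ± 1.20 CPM per kb (SD, n = 5). In the LFD controls Pdk2 and Pdk4 were at 32 ± 10 and 26.9 ± 6.24 CPM per kb in B6 eWAT and at 19.5 ± 2.96 and 18.7 ± 2.99 in 129 eWAT (SD, n = 4).

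**Figure D2:**
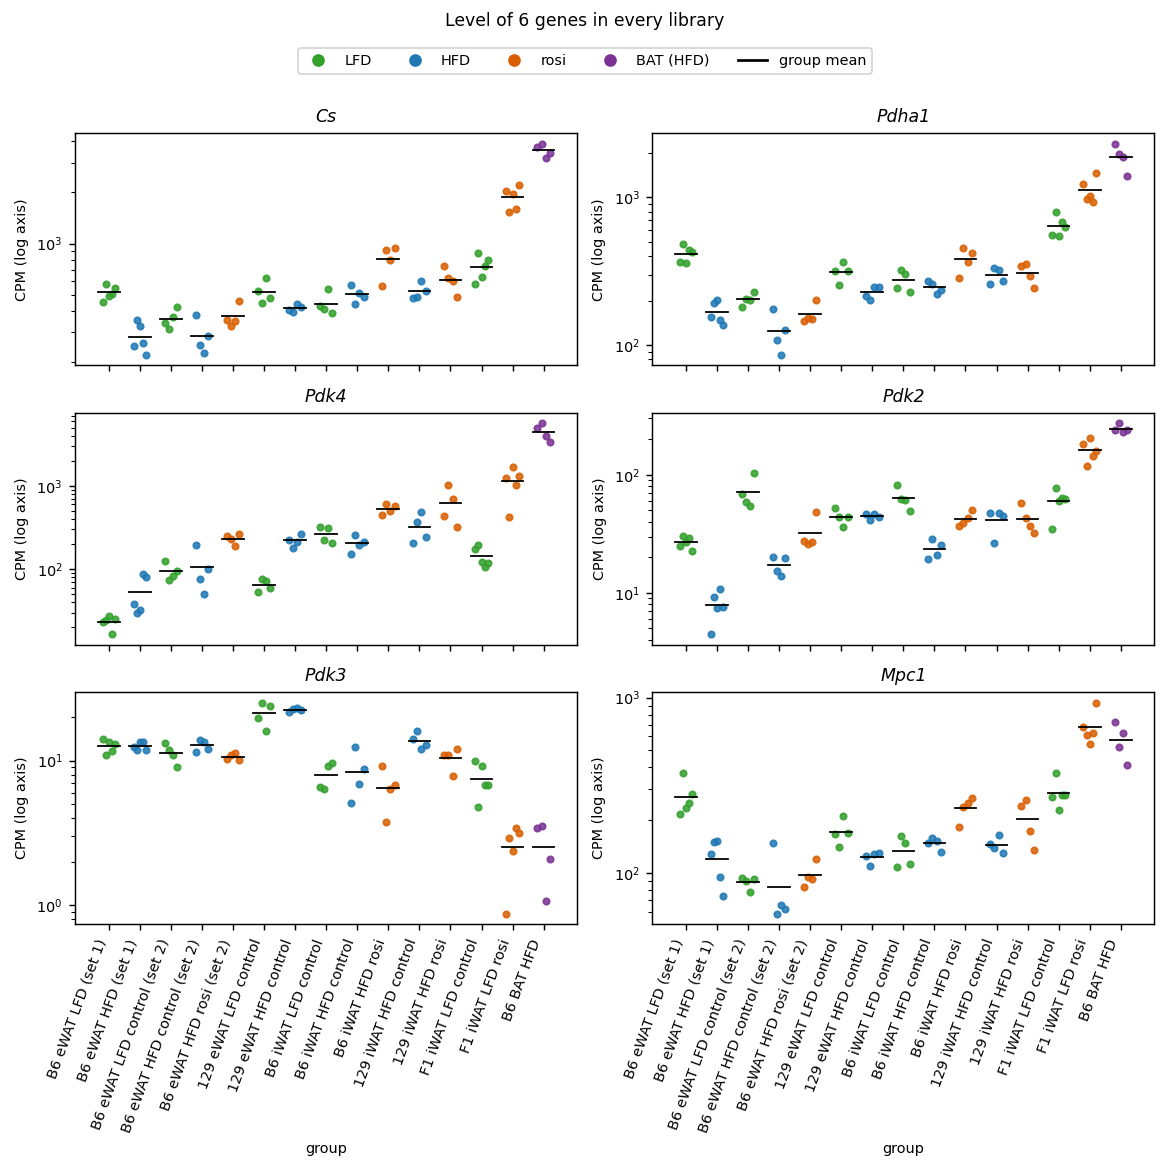
CPM (log axis) of Cs, Pdha1, Pdk4, Pdk2, Pdk3 and Mpc1 in every library (points) by group, with the group mean as a bar; colours mark LFD, HFD, rosiglitazone and BAT. Cs runs from 221 CPM in a B6 eWAT HFD library to 3883 CPM in BAT, and Pdk3 has its lowest means in BAT and F1 iWAT rosi.

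The question of how far brown and inguinal fat differ was addressed in B6 mice on HFD. Most of the 30 genes were higher in BAT: 27 were higher and 2 lower, with a median log2 difference of 2.62 over the members and -0.02 over all 12439 genes tested. Across all genes 32.1% were called higher and 33.2% lower. All 13 cycle enzymes were higher, by 2.22 to 3.77 on the log2 scale, as were all 4 pyruvate dehydrogenase subunits and both carrier subunits. Ogdh, the E1 subunit of the 2-oxoglutarate dehydrogenase complex, read 4986, 5578, 4084 and 4263 CPM in BAT and 381, 376, 349 and 360 CPM in iWAT. The groups were far apart, with a log2 difference of 3.72 ± 0.14 (SE; edgeR adjusted p = 7.9e-09). Pdk4 read 4935, 5711, 3994 and 3393 CPM in BAT and 153, 255, 195 and 211 CPM in iWAT, also without overlap, a log2 difference of 4.50 ± 0.22 (edgeR adjusted p = 3.4e-08). Other large differences were those of Idh3g (3.77 ± 0.13), the gamma subunit of NAD-dependent isocitrate dehydrogenase, Suclg1 (3.65 ± 0.11) and Idh3b (3.63 ± 0.12). Cs differed by 2.86 ± 0.12, Pdha1 by 2.98 ± 0.15 and Mpc1 by 1.99 ± 0.16.

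Among the cytosolic genes, Mdh1 was higher in BAT by 0.70 ± 0.12 on the log2 scale, where its mitochondrial counterpart Mdh2 was higher by 2.68 ± 0.10, and the edgeR adjusted p values were 0.0004 and 9e-09. Pdk3 read 3.44, 3.52, 1.07 and 2.09 CPM in BAT and 5.12, 12.5, 6.86 and 8.69 CPM in iWAT. The Pdk3 groups did not overlap, and the log2 difference was -1.68 ± 0.37 (edgeR adjusted p = 0.00218). The BAT libraries held 3794378 to 4560610 reads counted to genes, so few of them were Pdk3 reads and the size of this difference is imprecise. Idh1, which makes cytosolic NADPH, was lower by 0.28 ± 0.11 on the log2 scale (log2 difference -0.28, edgeR adjusted p = 0.0484). That Idh1 call was lost without BAT library 2, 3 or 4 or iWAT control library 1 or 3, with adjusted p of 0.0314 to 0.125 over all left-out libraries, and also under RLE scaling (0.0523), with no low-count filter (0.0574) and in a fit over all libraries of the depots (0.0666). Pdp1 (0.41 ± 0.24, edgeR adjusted p = 0.161) was the single gene not called, and was called without BAT library 2 (lowest adjusted p = 0.00859). Sequencing run goes with depot here and cannot be told apart from it. Summed over 7 brown fat markers, CPM was 9429 to 11649 in BAT and 47.3 to 126 in iWAT.

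Between the white depots of B6 mice on HFD, 22 of the 30 genes were lower in eWAT and 3 higher, with a median log2 difference of -0.80 against -0.01 over the 13284 genes tested. Of all genes 22.9% were lower and 26.0% higher. All 13 cycle enzymes were lower, led by Idh2, the mitochondrial NADP-dependent isocitrate dehydrogenase. Idh2 read 107, 81.3, 65.0 and 87.3 CPM in eWAT and 225, 211, 177 and 193 CPM in iWAT. These groups were apart, with a log2 difference of -1.32 ± 0.16 (edgeR adjusted p = 0.00129). Cs (-0.89 ± 0.18), Pdha1 (-1.07 ± 0.21), Sucla2 (-1.14 ± 0.26), Idh3a (-1.19 ± 0.33) and Mpc2 (-1.21 ± 0.34) were lower too. Got1 (1.57 ± 0.24, edgeR adjusted p = 0.00182) and Got2 (1.38 ± 0.22, edgeR adjusted p = 0.00194), the cytosolic and mitochondrial aspartate aminotransferases, were higher in eWAT.

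That eWAT group was uneven. Its adipocyte marker sums were 20171, 6479, 3012 and 10361 CPM and its sums over 10 macrophage markers 3997, 9631, 11930 and 7651 CPM. In iWAT HFD control the same sums were 25849 to 30518 and 1149 to 2403 CPM. The part of these markers in the result was not tested, and run goes with depot. Pdk4, at -1.02 ± 0.38, lay at the threshold (edgeR adjusted p = 0.0523). It was called lower in eWAT by DESeq2 (adjusted p = 0.0192), under RLE scaling (0.0472), in a fit over all libraries of the depots (0.0118), with the replicate block (0.0497) and without eWAT library 1 (0.000631, log2 difference -1.52). The Mpc1 call (-0.89 ± 0.30, edgeR adjusted p = 0.0365) was lost when any single library other than eWAT library 1 was left out (highest adjusted p = 0.0898), as was that of Mdh1 (0.0819).

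Most of the pathway rose with rosiglitazone in B6 iWAT on HFD. Of the 30 genes, 21 rose and none fell, with a median log2 change of 0.69 against -0.04 over the 12789 genes tested. Over all genes 6.83% rose and 6.38% fell. By role, 11 of 13 cycle enzymes, 4 of 4 pyruvate dehydrogenase subunits, 3 of 4 kinases and both carrier subunits rose. Of the 4 cytosolic counterparts and aspartate aminotransferases 1 rose (Mdh1), and none of the 3 phosphatase genes did. Sucla2 read 255, 209, 240 and 222 CPM in control and 380, 635, 589 and 655 CPM with rosiglitazone. Every treated library was above every control, treated library 1 was the lowest of the 4, and the log2 change was 1.27 ± 0.15 (edgeR adjusted p = 0.00076). Pdk4 read 153, 255, 195 and 211 CPM in control and 453, 612, 506 and 569 CPM with treatment. Its groups were again apart, with a rise of 1.38 ± 0.15 on the log2 scale (edgeR adjusted p = 0.00043). Dlat, the acetyl-transferring core of pyruvate dehydrogenase, rose by 1.07 ± 0.15, Idh3b by 1.05 ± 0.17 and Mdh2 by 1.04 ± 0.14.

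Citrate synthase, often used as a marker of mitochondrial mass, read 568, 443, 509 and 484 CPM in control and 561, 920, 797 and 945 CPM with rosiglitazone. The groups overlapped through treated library 1, and the rise was 0.67 ± 0.15 on the log2 scale (edgeR adjusted p = 0.0157). The Cs call was lost without control library 4 (adjusted p = 0.0524) or treated library 4 (0.0528) and with the replicate number as a block (0.0684). Pdha1 (0.61 ± 0.13, edgeR adjusted p = 0.0129) and Mpc1 (0.66 ± 0.11, edgeR adjusted p = 0.00433) rose as well. Partners did not move alike: Suclg2 changed by 0.20 ± 0.10 (edgeR adjusted p = 0.223) and Idh2 by 0.08 ± 0.11 (0.691), the cycle enzymes not called. Adipocyte marker sums were 25849 to 30518 CPM in control and 28542, 40906, 38190 and 38606 CPM in the treated libraries, and brown fat marker sums were 47.3 to 126 and 177 to 461 CPM. The part of these markers in the rise was not tested.

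In F1 iWAT on LFD the rise with rosiglitazone took in nearly the whole set. Of the 30 genes 26 rose and 2 fell, with a median log2 change of 1.32 against -0.03 over the 11859 genes tested, of which 18.7% rose and 19.1% fell. All 13 cycle enzymes rose, from 0.29 for Suclg2 to 2.06 for Sucla2 on the log2 scale. Cs read 579, 885, 638, 736 and 799 CPM in control and 2052, 1534, 1962, 1590 and 2224 CPM with treatment. The lowest treated library was well above the highest control, and the rise was 1.37 ± 0.15 (edgeR adjusted p = 1.6e-05). Pdk4 read 173, 197, 122, 105 and 118 CPM in control and 1254, 424, 1705, 1030 and 1312 CPM with treatment. Treated library 2 was the lowest but still above all controls, and the rise was 3.01 ± 0.32 (edgeR adjusted p = 1.5e-05), the largest of the set. Sucla2 (2.06 ± 0.21), Idh3b (1.76 ± 0.16), Idh3a (1.72 ± 0.15) and Dlat (1.64 ± 0.15) came next, and Mpc1 (1.25 ± 0.16) and Pdha1 (0.81 ± 0.15) rose less.

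Pdk3 and Pdp1 fell. Pdk3 read 9.92, 4.74, 9.15, 6.75 and 6.79 CPM in control and 0.870, 2.89, 2.35, 3.40 and 3.13 CPM with treatment. Those groups did not overlap, and the log2 change was -1.55 ± 0.31 (edgeR adjusted p = 0.00171). The treated libraries held 3099737 to 4808947 reads counted to genes, so these CPM stand for few Pdk3 reads and the size of its fall is imprecise. Pdp1, a phosphatase catalytic subunit, read 22.0, 19.0, 19.0, 19.5 and 22.7 CPM in control and 13.1, 13.4, 13.1, 15.4 and 18.0 CPM with treatment. It fell by 0.49 ± 0.13 on the log2 scale, without overlap (edgeR adjusted p = 0.011). Got1 (0.84 ± 0.35, edgeR adjusted p = 0.0704) and Got2 (-0.31 ± 0.22, edgeR adjusted p = 0.299) were not called; Got1 was called without control library 1 or treated library 2 or 4 (lowest adjusted p = 0.0263). Brown fat marker sums were 226 to 559 CPM in control and 2169 to 7155 CPM with treatment, Ucp1 averaged 55.1 ± 51.9 and 2438 ± 1618 CPM (SD, n = 5), and macrophage marker sums were 341 to 1147 and 162 to 322 CPM. Their part in the change was not tested. The 21 genes that rose in B6 iWAT were also 21 of the 26 that rose in F1 iWAT, from libraries that share no control. F1 iWAT already had 26 of the 30 called higher, and the overlap over all genes was not counted. Idh2, Suclg2, Idh1, Pdp2 and Pdpr were called in F1 alone, a difference that was not tested and that crosses diets.

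In 129 iWAT on HFD no member was called. The median log2 change was 0.14, with 24 of 30 above 0. At unadjusted p below 0.05 there were 8 of the 30 members and 1084 of all 12703 genes, of which edgeR called 0.110% in either direction after adjustment. DESeq2 called 125 genes up and 63 down but no member. Pdk4 read 209, 365, 480 and 245 CPM in control and 434, 1038, 693 and 324 CPM with treatment, so that the groups overlapped, and the change was 0.93 ± 0.36 (edgeR adjusted p = 0.484). Mpc1 (0.48 ± 0.19), Cs (0.22 ± 0.14) and Pdha1 (0.05 ± 0.14) had edgeR adjusted p of 0.503, 0.749 and 0.965. For Sucla2 the control libraries read 163, 180, 212 and 138 CPM and the treated ones 231, 231, 187 and 133 CPM, largely overlapping. Leaving out the most muscle-marker-rich library of each group together, chosen after the data were seen, also gave no call. Adipocyte marker sums were 25753 to 32480 CPM in control and 33415 to 42598 CPM with treatment, without overlap. Brown fat marker sums were 123.4 to 504.4 CPM in control, highest in library 3, and 130 to 398.5 CPM with treatment. The part of these markers was not tested.

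The test of the difference between strains called no member at edgeR's threshold, with 0.106% of 13267 genes called in either direction. The estimates were one-sided, with a median of -0.47 (129 minus B6) against -0.01 over all genes. At unadjusted p below 0.05 there were 17 of the 30 members and 1230 of the 13267 genes. Sucla2 had -1.12 ± 0.26 (edgeR adjusted p = 0.128) and Mdh2 -0.78 ± 0.21 (edgeR adjusted p = 0.221). DESeq2 called these same genes, Sucla2 at -1.13 (adjusted p = 0.00549) and Mdh2 at -0.78 (adjusted p = 0.0414). So did edgeR without B6 rosi library 1, at -1.27 (adjusted p = 0.0324) and -0.91 (adjusted p = 0.0416). The difference for Cs was -0.47 ± 0.21 (edgeR adjusted p = 0.504), for Pdk4 -0.47 ± 0.43 (0.809), for Pdha1 -0.59 ± 0.20 (0.353) and for Mpc1 -0.21 ± 0.23 (0.856).

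In B6 eWAT on HFD no gene of 13213 was called with rosiglitazone by edgeR (0%), and 624 had an unadjusted p below 0.05. Among the members 26 of 30 changes were above 0, the median was 0.46 against 0.00 over all genes, and 8 had an unadjusted p below 0.05. Idh3b read 110, 97.7, 91.5 and 91.8 CPM in control and 122, 143, 132 and 140 CPM with treatment. Its groups did not overlap, the change was 0.55 ± 0.12 on the log2 scale (edgeR adjusted p = 0.932), and DESeq2 called it at adjusted p = 0.0218, the single member among 19 genes up and 11 down. A fit over all eWAT libraries called Idh3b, Dlst, Mdh2 and Pdk2, with adjusted p of 0.0279 to 0.0402, among 74 genes up and 14 down of 13829 in that fit. Pdk4 (1.24 ± 0.39), Cs (0.49 ± 0.22), Pdha1 (0.49 ± 0.25) and Mpc1 (0.31 ± 0.33) each had an edgeR adjusted p of 0.932. Spread within groups was wide. Control library 1 and treated library 4 had adipocyte sums of 20171 and 26899 CPM, against 3012 to 10361 and 11556 to 14475 CPM in their other libraries. Their mean log2(CPM + 1) of the 13 cycle enzymes was also the highest of their groups, at 7.15 and 7.40. Over the control libraries that mean followed the order of the sums. Over the treated ones it did not, with 6.96 in library 1 (14475 CPM) and 7.08 in library 2 (11556 CPM). The part of these markers in the result was not tested. The difference between the depots in response was not called for any member (0% of 13639 genes, 590 at unadjusted p below 0.05), with a median of -0.29 (eWAT minus iWAT) and 2 members at unadjusted p below 0.05. DESeq2 called 3 genes in that test and no member.

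**Figure D3:**
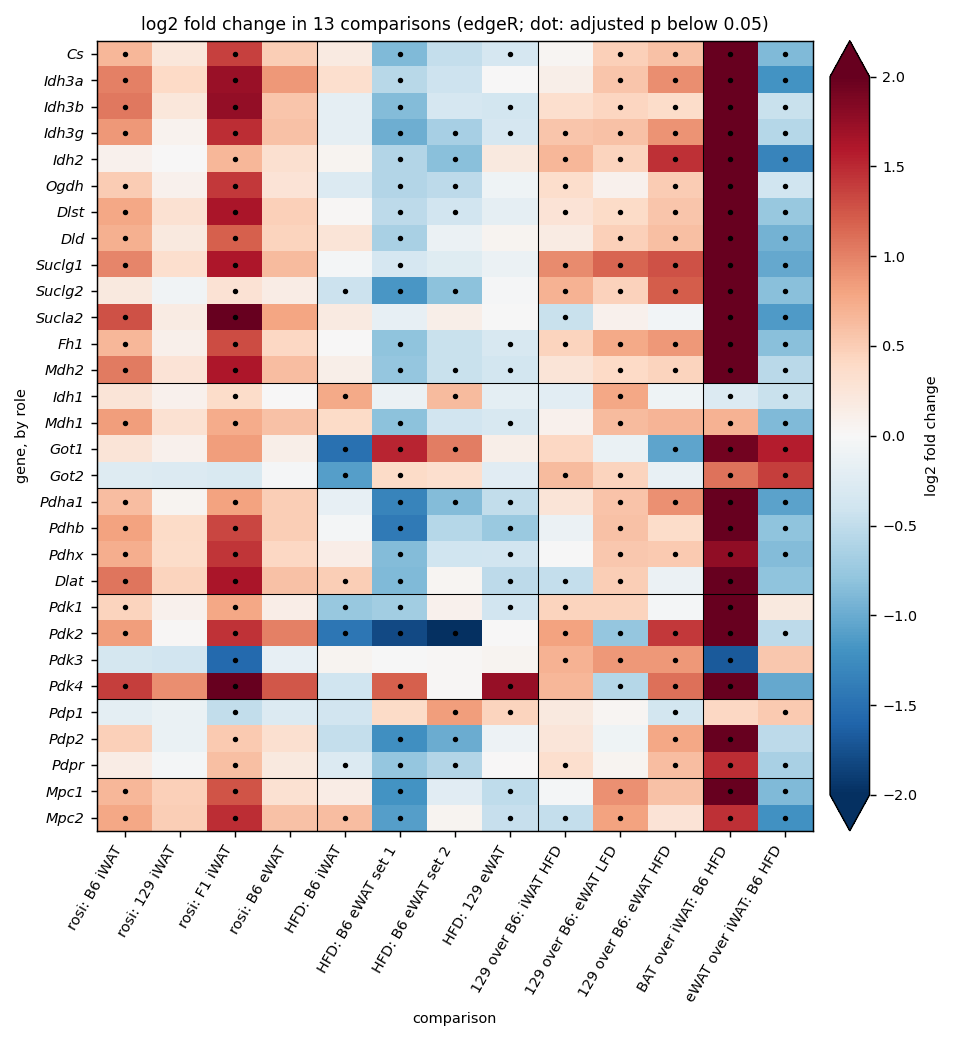
log2 fold change of each of the 30 genes (rows, by role) in 13 comparisons (columns), red for higher and blue for lower, with a dot at edgeR adjusted p below 0.05; colours saturate at 2 on the log2 scale. Rosiglitazone in F1 iWAT and BAT over iWAT are red with dots in most rows, HFD in B6 eWAT of the first set is blue with dots in 23 rows, and Pdk2, Pdk3, Pdk4, Got1 and Sucla2 often depart from their neighbours.

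The pathway was lower on HFD in B6 eWAT. In the first set 23 of the 30 genes fell and 3 rose, with a median log2 change of -0.78 against -0.00 over the 12447 genes tested, of which 28.5% fell and 29.5% rose. All 4 pyruvate dehydrogenase subunits, both carrier subunits and 12 of 13 cycle enzymes fell. Pdha1, the regulated E1 alpha subunit, read 366, 487, 357, 439 and 425 CPM on LFD and 156, 194, 202, 148 and 137 CPM on HFD. The groups were wide apart, with a log2 change of -1.32 ± 0.13 (edgeR adjusted p = 2.9e-06). Pdhb (-1.42 ± 0.17), Pdp2 (-1.23 ± 0.15), Mpc1 (-1.19 ± 0.20), Suclg2 (-1.17 ± 0.11) and Cs (-0.88 ± 0.13) fell likewise. Sucla2 changed by -0.17 ± 0.14 (edgeR adjusted p = 0.289), the single cycle enzyme not called, and the Suclg1 call was lost with 8 of the 10 libraries left out in turn (highest adjusted p = 0.111).

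The kinases went in opposite directions. Pdk2 read 24.7, 30.5, 26.8, 29.3 and 22.8 CPM on LFD and 4.45, 9.15, 7.41, 10.8 and 7.64 CPM on HFD. The groups were far apart, with a log2 change of -1.80 ± 0.19 (edgeR adjusted p = 4.6e-06). Pdk4 read 22.8, 24.6, 27.4, 16.4 and 25.1 CPM on LFD and 37.9, 29.4, 32.4, 86.3 and 80.5 CPM on HFD. Every HFD library was above every LFD library, libraries 4 and 5 most, and the rise was 1.19 ± 0.30 (edgeR adjusted p = 0.00431). Got1 rose by 1.52 ± 0.21 (edgeR adjusted p = 4.3e-05) and Got2 by 0.38 ± 0.11 (edgeR adjusted p = 0.00889). Pdk3 was at -0.01 ± 0.12 (edgeR adjusted p = 0.959).

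In the second B6 eWAT set 10 genes fell and 3 rose, with a median log2 change of -0.39 against -0.02 over the 13106 genes tested, of which 24.3% fell and 25.7% rose. All 10 that fell were among the 23 of the first set, whose libraries are separate. The first set already had 23 of the 30 called lower, and the overlap over all genes was not counted. The calls of Mdh2 and Dlst were lost with 7 and 5 of the 8 libraries left out in turn (highest adjusted p = 0.141 and 0.0911). Pdk2 had the largest fall again, reading 69.0, 59.2, 54.9 and 104 CPM on LFD and 20.1, 15.2, 14.0 and 19.6 CPM on HFD. The groups did not overlap, and the log2 change was -2.21 ± 0.24 (edgeR adjusted p = 0.00027). Pdp2 (-0.99 ± 0.19), Pdha1 (-0.87 ± 0.22), Idh2 (-0.83 ± 0.19) and Suclg2 (-0.82 ± 0.20) fell as well, and Got1 (1.02 ± 0.27), Pdp1 (0.83 ± 0.19) and Idh1 (0.64 ± 0.14) rose. Cs changed by -0.48 ± 0.19 (edgeR adjusted p = 0.0577) and was called by DESeq2 (adjusted p = 0.0376) and when all eWAT libraries were fitted together (0.0147). Mpc1 changed by -0.22 ± 0.29 (0.549) and Pdk4 by 0.03 ± 0.37 (0.956). Pdk4 read 124, 74.6, 81.5 and 95 CPM on LFD and 194, 75.3, 50.7 and 100 CPM on HFD, so that these groups overlapped throughout. HFD library 1 stood apart here: without it 19 genes fell and 4 rose, among them Cs (-0.62, edgeR adjusted p = 0.00605) and Mpc1 (-0.63, edgeR adjusted p = 0.000928).

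Markers moved with the diet in both sets. Adipocyte sums were 19325 to 27697 CPM in the lean B6 eWAT libraries of both sets, 6442 to 18320 CPM on HFD in the first set and 3012 to 20171 CPM in the second. Macrophage sums were 817 to 1574 CPM on LFD in both sets, 5540 to 11253 CPM on HFD in the first set and 3997 to 11930 CPM in the second. Within both HFD groups of these diet comparisons the mean log2(CPM + 1) of the 13 cycle enzymes was lowest in the library with the lowest adipocyte sum. It was 6.39 in HFD control library 3 (3012 CPM) and 6.30 in HFD library 5 of the first set (6442 CPM). In the HFD rosi group it was lowest, at 6.96, in library 1 (14475 CPM), and 7.08 in library 2, which had the lowest sum (11556 CPM). In HFD control library 1 of the second set (20171 CPM) it was 7.15. The part of these markers in the falls was not tested, and in the second set run goes with diet and cannot be told apart from it. The share of reads in no feature was 39.3% to 49.1% on LFD and 33.9% to 36.4% on HFD in that set, and its part was not tested either.

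**Figure D4:**
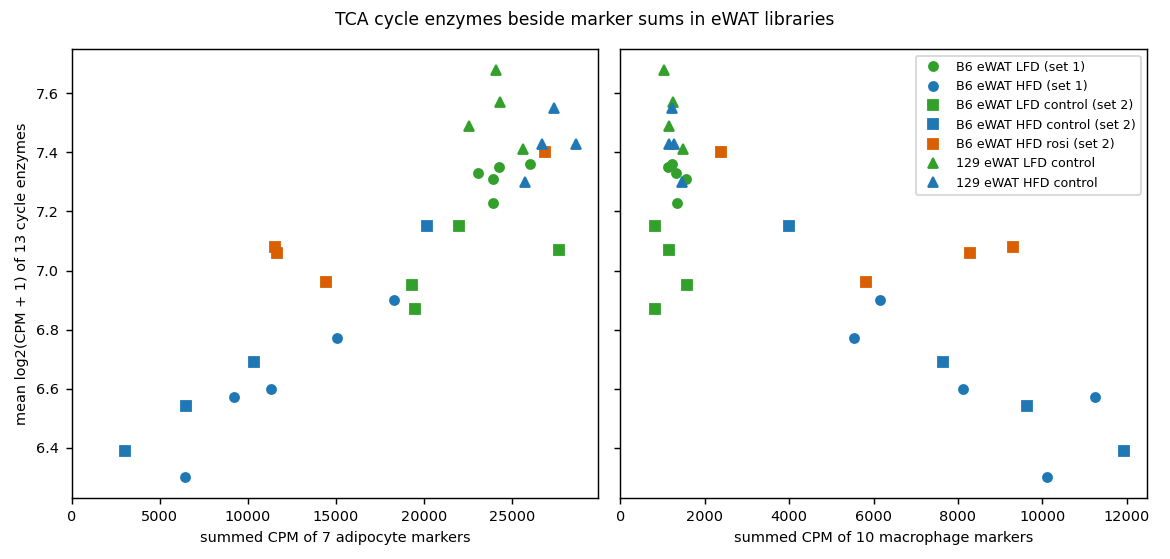
Mean log2(CPM + 1) of the 13 cycle enzymes (vertical axis) against the summed CPM of 7 adipocyte markers (left) and 10 macrophage markers (right), 1 point for each eWAT library, coloured by diet or treatment with a symbol for each set. B6 libraries on HFD not labelled rosi spread from 3012 to 20171 CPM of adipocyte markers and from 6.30 to 7.15 in the enzymes. Those labelled rosi spread from 11556 to 26899 CPM and from 6.96 to 7.40, and lean B6 libraries sit together at the low macrophage end.

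In 129 eWAT 13 genes fell and 2 rose with HFD, with a median log2 change of -0.18 against 0.01 over the 12554 genes tested, of which 9.27% fell and 11.9% rose. The 4 pyruvate dehydrogenase subunits and both carrier subunits fell, with 5 of 13 cycle enzymes. Pdhb read 205, 142, 207 and 187 CPM on LFD and 109, 100, 121 and 119 CPM on HFD. The groups were apart, with a log2 change of -0.74 ± 0.11 (edgeR adjusted p = 0.00121). Pdk4 read 53.3, 75.0, 72.8 and 59.8 CPM on LFD and 224, 180, 215 and 267 CPM on HFD. Every HFD library was above every LFD library, and the rise was 1.74 ± 0.13 (edgeR adjusted p = 1.5e-05). Dlat (-0.53 ± 0.13), Mpc1 (-0.51 ± 0.11) and Pdha1 (-0.49 ± 0.11) fell, with edgeR adjusted p of 0.0153, 0.0064 and 0.00756. Mpc2 (-0.46 ± 0.13, edgeR adjusted p = 0.0222) lost its call without HFD library 1 or 2, Pdp1 (0.44 ± 0.12, edgeR adjusted p = 0.0178) without LFD library 1, and Cs (-0.34 ± 0.10, edgeR adjusted p = 0.0304) without HFD library 1, 2 or 4 or LFD library 1.

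Macrophage sums in 129 eWAT were 1044 to 1484 CPM on LFD and 1163 to 1449 CPM on HFD, and adipocyte sums 22598 to 25623 and 25743 to 28647 CPM. Run goes with diet here too. The number of calls depended on the fit: without HFD library 1, or without HFD library 2, 6 genes fell and 2 rose, and a fit over all eWAT libraries called 2 falls (Idh3b and Pdhb) and 1 rise (Pdk4). In that last fit the calls over all genes went from 1493 up and 1164 down to 449 up and 470 down, and the members no longer called had similar changes, such as Cs at -0.37, Mpc1 at -0.53, Pdha1 at -0.52 and Dlat at -0.55. All 13 genes that fell in 129 eWAT also fell in the first B6 set, where 23 of the 30 fell, and the overlap over all genes was not counted. Of the 13, Idh3g, Mdh2 and Pdha1 were among the 10 that fell in the second B6 set, which shares sequencing runs with the 129 libraries.

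The test of the difference between strains in the eWAT response to HFD called 7 members with a higher change in 129 and 2 with a lower one, with 18.7% and 21.5% of 13523 genes called in those directions and a median member difference of 0.07. Pdk2 had the largest, 2.17 ± 0.27 (129 minus B6; edgeR adjusted p = 3.6e-05). It read 52.2, 43.7, 35.9 and 43.7 CPM in 129 on LFD and 46.7, 41.0, 46.5 and 44.2 CPM on HFD, level with diet, beside the fall in B6. Pdk4 differed by 1.67 ± 0.43 (edgeR adjusted p = 0.00559), Idh2 by 1.0 ± 0.25 (0.00535), Pdp2 by 0.84 ± 0.21 (0.00521) and Suclg2 by 0.75 ± 0.24 (0.019). Ogdh differed by 0.40 and lost its call with 5 of the 16 libraries left out in turn (highest adjusted p = 0.067). Idh1 differed by -0.87 ± 0.16 (edgeR adjusted p = 0.0006) and Got1 by -0.94 ± 0.31 (0.0249), the latter not called without B6 HFD control library 2 or B6 LFD control library 1 or 2. Cs (0.10 ± 0.22), Pdha1 (0.34 ± 0.25) and Mpc1 (-0.33 ± 0.34) were not called, with edgeR adjusted p of 0.741, 0.305 and 0.462. Without B6 HFD control library 1, 10 members were called higher and 4 lower, Pdha1 among the former (adjusted p = 0.0259).

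In B6 iWAT 3 of the 30 genes rose with HFD and 6 fell. Of all 13240 genes 11.7% rose and 11.1% fell, and the median log2 change was -0.01 in both. Of the 13 cycle enzymes Suclg2 alone was called (-0.43 ± 0.10, edgeR adjusted p = 0.0141). Idh1 read 252, 285, 292 and 276 CPM on LFD and 517, 428, 491 and 428 CPM on HFD. The groups were clearly apart, with a rise of 0.75 ± 0.10 (edgeR adjusted p = 0.0011). Pdk2 read 81.9, 62.1, 61.6 and 48.9 CPM on LFD and 19.3, 28.6, 20.8 and 25.3 CPM on HFD. It fell by 1.44 ± 0.17 on the log2 scale, without overlap (edgeR adjusted p = 0.00064). Got1 (-1.49 ± 0.27), Got2 (-1.10 ± 0.19) and Pdk1 (-0.76 ± 0.16) fell too.

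Dlat (0.49 ± 0.14, edgeR adjusted p = 0.0295) lost its call in iWAT without HFD control library 1, 3 or 4 or LFD library 1 or 4, and Mpc2 (0.62 ± 0.16, edgeR adjusted p = 0.0201) without HFD control library 1 or 3 or LFD library 1. Cs (0.18 ± 0.13), Mpc1 (0.15 ± 0.14), Pdha1 (-0.16 ± 0.13) and Pdk4 (-0.40 ± 0.18) were not called, with edgeR adjusted p of 0.336, 0.491, 0.408 and 0.141. The skeletal muscle marker sums were 52364, 4888, 17101 and 21538 CPM in the LFD libraries and 50.7 to 163 CPM in the HFD controls. They separate the diets completely, and their part in the result was not tested.

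Calls between the strains were most numerous in eWAT. On LFD 21 of the 30 genes were higher and 2 lower in 129 than in B6, with a median log2 difference of 0.46 against -0.03 over the 12523 genes tested, of which 16.1% were higher and 16.2% lower. Suclg1, the subunit shared by both succinyl-CoA ligases, read 165, 123, 149 and 133 CPM in 129 and 64, 50.3, 60.6 and 70.3 CPM in B6. The strains were well apart, at 1.17 ± 0.13 (edgeR adjusted p = 8.4e-05). Mpc1 (0.91 ± 0.13), Pdk3 (0.86 ± 0.18), Mpc2 (0.81 ± 0.14), Idh1 (0.78 ± 0.10) and Pdha1 (0.57 ± 0.13) were higher in 129, and Pdk2 was lower (-0.77 ± 0.20, edgeR adjusted p = 0.0124). Cs (0.47 ± 0.14, edgeR adjusted p = 0.0203) lost its call without 129 library 3 or B6 library 2, and Pdk4 (-0.57 ± 0.16, edgeR adjusted p = 0.0161) without 129 library 1 or 4. The share of reads in no feature separated these groups, at 39.3% to 49.1% in B6 and 32.3% to 36.7% in 129, and its part in the result was not tested.

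On HFD 19 genes were higher and 2 lower in 129 eWAT, with a median log2 difference of 0.59 against -0.01 over the 13206 genes tested, of which 25.3% were higher and 28.9% lower. Idh2 read 248, 184, 282 and 196 CPM in 129 and 107, 81.3, 65.0 and 87.3 CPM in B6. Again the strains did not overlap, at 1.46 ± 0.19 (edgeR adjusted p = 0.00037). Pdk2 (1.41 ± 0.14), Suclg1 (1.27 ± 0.18), Suclg2 (1.21 ± 0.19), Pdha1 (0.91 ± 0.21) and Cs (0.59 ± 0.17) were higher, and Got1 was lower (-1.06 ± 0.20, edgeR adjusted p = 0.00219). Pdk4 (1.10 ± 0.37, edgeR adjusted p = 0.0323) was not called without 129 library 1, 3 or 4 or B6 library 2 or 4, Pdp1 (-0.37 ± 0.13, edgeR adjusted p = 0.0334) without 129 library 2, 3 or 4 or B6 library 2, 3 or 4, and Mpc1 (0.59 ± 0.30, edgeR adjusted p = 0.124) was called without B6 library 1. The adipocyte and macrophage sums above, uneven in B6 on HFD and even in 129, go with strain on HFD, and their part was not tested.

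In iWAT on HFD 12 genes were higher and 3 lower in 129, against 11.7% and 16.1% of the 12894 genes tested, with a median log2 difference of 0.27 beside 0.01. Suclg1 read 194, 221, 254 and 191 CPM in 129 and 111, 109, 117 and 102 CPM in B6, without overlap, at 0.95 ± 0.11 (edgeR adjusted p = 0.00013). Pdk2 (0.80 ± 0.19), Suclg2 (0.69 ± 0.09) and Idh2 (0.67 ± 0.09) were higher, and Dlat (-0.48 ± 0.09) and Mpc2 (-0.47 ± 0.12) lower. A fit over all libraries of the depots called 10 higher and none lower, with Dlat at -0.45 (adjusted p = 0.0842) and Mpc2 at -0.44 (0.0823). Sucla2 (-0.44 ± 0.13, edgeR adjusted p = 0.0267) lost its call without 129 library 1 or 4 or B6 library 1, 3 or 4, and Pdk3 (0.70 ± 0.23, edgeR adjusted p = 0.0468) without 129 library 1, 2 or 4 or B6 library 1, 3 or 4. Cs (0.04 ± 0.11), Pdha1 (0.25 ± 0.11) and Mpc1 (-0.04 ± 0.10) were not called, with edgeR adjusted p of 0.825, 0.104 and 0.776, and Pdk4 (0.66 ± 0.24, 0.0671) was called without 129 library 1. Lane goes with strain here, the share of reads in no feature was 36.0% to 39.6% in B6 and 33.1% to 35.5% in 129, and 129 library 3 held the muscle markers given above. The part of these in the result was not tested. How many of all genes were called higher in 129 in all 3 strain comparisons was not counted. Singly the shares were 11.7% in iWAT, 16.1% in eWAT on LFD and 25.3% in eWAT on HFD. Of the members 7 were called higher in 129 in all 3: Idh3g, Idh2, Dlst, Suclg1, Suclg2, Fh1 and Pdk3. Some of these calls were lost with a single library left out: that of Dlst in iWAT with 7 of the 8 libraries (highest adjusted p = 0.139), that of Pdk3 in iWAT with 6, that of Idh2 in eWAT on LFD with 5 (highest adjusted p = 0.0876), and those of Dlst and Suclg2 in eWAT on LFD with 1 each.

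The alternative subunits of succinyl-CoA ligase shifted against each other, which a ratio within each library shows without regard to scaling. The log2 ratio of Sucla2 to Suclg2 CPM was 3.21 ± 0.06 (SD, n = 4) in BAT. In B6 iWAT it was 1.38 ± 0.11 on LFD, 1.99 ± 0.13 in HFD control and 3.04 ± 0.23 with rosiglitazone, and these 3 groups did not overlap. In F1 iWAT it was 1.22, 0.88, 0.52, 0.78 and 0.77 in control and 2.93, 2.02, 2.85, 1.98 and 2.96 with rosiglitazone, apart in every library. In 129 iWAT it was 0.70, 0.88, 1.13 and 0.71 in control and 1.20, 1.21, 1.18 and 0.72 with rosiglitazone, which overlapped.

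The same ratio in B6 eWAT was 0.61 ± 0.22 (SD, n = 5) and 0.76 ± 0.35 (n = 4) on LFD, 1.58 ± 0.14 and 1.64 ± 0.19 on HFD, and 2.30 ± 0.13 with rosiglitazone on HFD. In each B6 eWAT set all HFD libraries were above all LFD libraries, and all rosiglitazone libraries were above all HFD controls, although the markers were uneven there. In 129 eWAT it was 0.39 ± 0.32 on LFD and 0.41 ± 0.08 on HFD, which did not differ beyond their spread. The log2 ratio of Pdk4 to Pdk2 rose from -0.22 ± 0.39 (n = 5) to 2.66 ± 0.72 with HFD in the first B6 eWAT set, from 0.40 ± 0.41 (n = 4) to 2.45 ± 0.59 in the second and from 0.57 ± 0.43 to 2.30 ± 0.20 in 129 eWAT, without overlap in each. In the second B6 set it moved through a fall of Pdk2 and in 129 through a rise of Pdk4. Of the 4 ratios computed, the widest spans over groups were those of Pdk4 to Pdk2, up to 4.17 in BAT, and of Idh1 to Idh2, from -1.38 ± 0.25 in BAT to 2.1 ± 0.14 in B6 eWAT HFD control (SD, n = 4). These ratios were chosen after levels were seen and are given with no test.

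**Figure D5:**
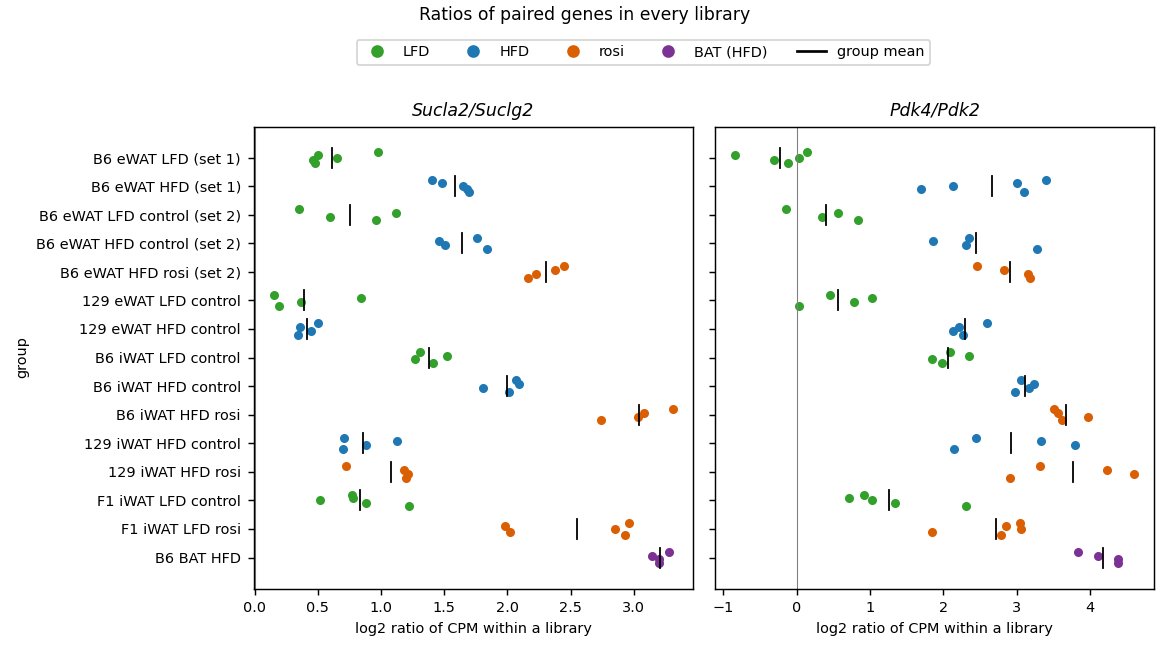
log2 ratio of Sucla2 to Suclg2 CPM (left) and of Pdk4 to Pdk2 CPM (right) in every library (points) by group, with the group mean as a bar. Sucla2 to Suclg2 runs from 0.15 in a 129 eWAT LFD library to 3.31 in a B6 iWAT rosi library, and Pdk4 to Pdk2 is lower on LFD than on HFD in each eWAT set.

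The log2 ratio of Mpc1 to Mpc2 CPM differed widely between sets of libraries, and is given with no test. It was 1.76 ± 0.22 and 1.72 ± 0.13 (SD, n = 5) on LFD and HFD in the first B6 eWAT set and 1.62 ± 0.07 and 1.38 ± 0.10 in F1 iWAT. In the second B6 eWAT set it was 0.56 ± 0.15, 0.31 ± 0.36 and 0.05 ± 0.15 (n = 4) in LFD control, HFD control and HFD rosi. The groups with the high ratio are those in which 64.3% to 70.6% of reads fell in no feature and 0.195% to 0.269% were ambiguous, against 29.3% to 49.1% and 0.672% to 1.23% elsewhere, and the part of this was not tested. Part of Mpc1 (23.05% of its exon bases in GENCODE M21) and of Pdha1 (16.15%) overlaps a gene on the opposite strand. Smaller parts of Got2 (9.0%), Pdpr (3.36%), Mdh1 (2.03%) and Idh3b (0.15%) do so too. The library kit does not mark strand, and the strand setting of the counting is not given in the sources used here. The levels of these genes are therefore uncertain by the reads in the overlaps, whether counted or left out.

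Another 23 genes of the pathway, listed with earlier results known, were counted in the same fits, and agreement with the members was not tested. With rosiglitazone 12 of the 22 tested rose and none fell in B6 iWAT (6.83% and 6.38% of all genes), 13 rose and 3 fell of 20 in F1 iWAT (18.7% and 19.1%), and none of 22 was called in 129 iWAT or in B6 eWAT. The 4 subunits of succinate dehydrogenase, Sdha to Sdhd, rose by 0.62 to 0.82 in B6 iWAT and by 1.02 to 1.35 in F1 iWAT on the log2 scale. In BAT 14 of 23 were higher and 5 lower than in iWAT (32.1% and 33.2% of all genes). In eWAT against iWAT 3 were higher and 9 lower of 22 (26.0% and 22.9%).

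With HFD 17 of 22 fell and 3 rose in the first B6 eWAT set (28.5% and 29.5% of all genes) and 13 fell and none rose in 129 eWAT (9.27% and 11.9%). In the second B6 set 8 fell and 5 rose of 22 (24.3% and 25.7%), and in B6 iWAT 3 fell and 2 rose of 23 (11.1% and 11.7%). Acly, which turns cytosolic citrate into acetyl-CoA for fat synthesis, fell by 2.49 ± 0.25 on the log2 scale in the first B6 set and by 1.73 ± 0.21 in 129 (log2 changes -2.49 and -1.73). Slc25a13, an aspartate-glutamate carrier, rose by 4.16 ± 0.36 and 3.07 ± 0.50 in the first and second B6 sets. Dhtkd1, a 2-oxoadipate dehydrogenase subunit, fell by 2.60 ± 0.24 and 2.83 ± 0.30 in those sets (log2 changes -2.60 and -2.83). In both sets the macrophage and adipocyte markers given above moved with diet, and their part in these changes was not tested. In 129 against B6, 11 were higher and 1 lower in eWAT on LFD (16.1% and 16.2% of all genes), 9 and 4 in eWAT on HFD (25.3% and 28.9%) and 7 and 3 in iWAT on HFD (11.7% and 16.1%), each of 23. The rosiglitazone interactions called none of the 23, and the diet by strain test called 3 higher and 4 lower (18.7% and 21.5%), where 7 members were higher and 2 lower.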

How the data were processed

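The 64 mouse adipose libraries were made from ribosome-depleted total RNA with the TruSeq RNA Sample Prep kit, per the labels' protocols; this kit does not mark strand. The deposited files hold raw counts per gene symbol, made by the authors with TopHat2 2.1.0, HTSeq and mm9, per the submitters' processing notes. The 5 summary tallies in each file (no feature 29.3% to 70.6%, ambiguous 0.195% to 1.23% of the reads tallied) entered neither library sizes nor tests. Groups came from the labels; libraries of a group differed from each other by more than counting noise.

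Counts were tested with edgeR 4.0.16 in R 4.3.3 (limma 3.58.1): TMM scaling, filterByExpr (minimum count 10, total 15), glmQLFit and glmQLFTest over the compared groups alone, with Benjamini-Hochberg adjustment over all genes tested and a threshold of 0.05. The fit was tested on simulated counts. Alternatives were DESeq2 1.42.0, RLE scaling, no filter, all libraries of the depots, the replicate number as a block and leaving out each library.

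Same-numbered libraries deviated together most evenly in BAT and iWAT (r from 0.24 to 0.35, 4 pairs), where the block gave the same 27 and 2 calls. Every r was positive but reached lower values in 129 iWAT rosiglitazone (0.02 to 0.21), second-set B6 eWAT diet (0.01 to 0.19) and iWAT strain (0.04 to 0.14).

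The members, gene lists and marker lists were chosen with earlier results of these data known. Named in each comparison were Cs, Pdha1, Pdk4, Mpc1 and up to 5 called members each way with the largest change; others were named after their values were seen. Values in every library are normalised CPM with no test of their own. One gene counted among the other genes of the pathway is not reported here by name.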

Additional observations from a re-analysis of the deposited data

Results flagged for a closer look

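Each member was examined in each group for 1 library far from the others, 450 sets in all, and 20 stood out. Chance flags about 1 set in 20, so this number is no more than chance gives, and the flags are listed as description. In library 4 of B6 eWAT HFD rosi the highest values were Idh3a 316 CPM, Mdh1 602 CPM, Pdha1 201 CPM, Dlat 193 CPM and Pdk2 48.0 CPM. In library 1 of B6 eWAT HFD control they were Dlst 156 CPM, Pdhb 131 CPM and Mpc1 148 CPM. These are the libraries with the highest adipocyte marker sum of their group (26899 and 20171 CPM), and the part of that was not tested.

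The other highest values were Got1 39.5 CPM and Pdpr 67.4 CPM in library 1 of B6 iWAT LFD control, the library with the highest muscle marker sum (52364 CPM), Got1 18.6 CPM in library 3 of 129 iWAT HFD control (muscle sum 26393 CPM), Fh1 196 CPM in library 3 of 129 eWAT LFD control, Idh3b 273 CPM in library 2 of F1 iWAT control, and Pdhx 290 CPM (289.7) and Mpc2 342 CPM (341.5) in library 5 of F1 iWAT rosi. The other lowest values were Dlst 302 CPM (301.5) in library 1 of B6 iWAT rosi, Mdh2 187 CPM (186.5) in library 4 of 129 iWAT rosi, Pdk2 26.3 CPM in library 2 and Mpc2 94.9 CPM in library 4 of 129 iWAT HFD control, and Mpc1 77.5 CPM in library 3 of B6 eWAT LFD control.

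The eWAT response to HFD was called different between the strains for 9 members by edgeR's interaction test, 7 higher and 2 lower in 129. Of all 13523 genes 18.7% were called higher and 21.5% lower in that test. The log2 differences (129 minus B6) were Pdk2 2.17, Pdk4 1.67, Idh2 1.0, Pdp2 0.84, Suclg2 0.75, Pdpr 0.54, Ogdh 0.40, Idh1 -0.87 and Got1 -0.94. The Ogdh call was lost with 5 of the 16 libraries left out in turn, and that of Got1 with 3. Run goes with diet in both strains, and the adipocyte and macrophage sums were uneven in B6 on HFD and even in 129. The part of these in the differences was not tested.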

How the results depend on the processing

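The counts of called members were within 1.5 times of those reported under RLE scaling, without the low-count filter and with the replicate number as a block in all 16 comparisons. Outside BAT and iWAT the numbers did not pair the libraries evenly (r of a pair from -0.37 to 0.70). With the replicate block B6 iWAT rosiglitazone had 19 calls and the B6 eWAT second-set change of Pdk4 was -0.12 (adjusted p = 0.659). DESeq2 called 1 member with rosiglitazone in B6 eWAT and 2 in the strain test of rosiglitazone. The fit over all libraries of the depots called 4 in B6 eWAT rosiglitazone and 3 in 129 eWAT diet. It also ended the iWAT strain calls of Dlat, Mpc2 and Sucla2 (adjusted p of 0.0842, 0.0823 and 0.171), the eWAT strain calls of Pdk4 on LFD (0.206) and Pdp1 on HFD (0.0803), the diet calls of Got2 in the first B6 eWAT set (0.0553) and Dlat in B6 iWAT (0.0704), and the diet by strain call of Got1 (0.0507), and it called Mpc1 between strains in eWAT on HFD (0.0362). The replicate block ended the eWAT strain call of Pdp1 on HFD (0.0609) and called Pdk4 between strains in iWAT (0.0313). The cause was not tested.

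With each library left out, called members ranged from 20 to 23 for rosiglitazone in B6 iWAT, 0 in 129 iWAT, 27 to 29 in F1 iWAT and 0 in B6 eWAT. For diet they ranged from 6 to 9 in B6 iWAT, 24 to 27 and 11 to 23 in the first and second B6 eWAT sets and 8 to 14 in 129 eWAT. Between strains they were 12 to 15 in iWAT and 16 to 24 (LFD) and 16 to 26 (HFD) in eWAT, and between depots 28 to 29 for BAT and 20 to 28 for eWAT. The interactions ranged from 0 to 2 (rosiglitazone by strain), 0 (by depot) and 7 to 14 (diet by strain).

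Changes of sign with a library left out were in values not called. The lowest and highest log2 values over left-out libraries were -0.02 to 0.15 for Pdha1 in 129 iWAT rosiglitazone, -0.43 to 0.29 for Pdk4 in second-set B6 eWAT diet, -0.03 to 0.11 for Cs in iWAT strain, -0.10 to 0.01 for Mpc1 in iWAT strain, -0.34 to 0.06 for Pdha1 in rosiglitazone by depot, -0.42 to 0.31 for Pdk4 in rosiglitazone by depot, -0.55 to 0.05 for Mpc1 in rosiglitazone by depot, -0.00 to 0.27 for Cs in diet by strain and -0.47 to 0.10 for Mpc1 in diet by strain. Counts of 3099737 to 9551251 reads per library limit the precision for Pdk3 and Got1, the lowest members.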
